A study of Mus musculus with 23 samples.

Results

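This report follows 40 interferon-stimulated genes, listed by symbol and chosen without Xaf1, a further interferon-stimulated gene that lies close to Sarm1 on chromosome 11. Of these, 38 matched a symbol in the TPM table, all 38 reached at least 10 counts in at least 5 of the 23 libraries, and they are described here among the 14364 genes that passed the same filter. They comprise 30 of the 32 listed type I antiviral genes and all 8 listed GTPases of the interferon gamma response. The remaining members, Mx1 and Mx2 on chromosome 16, had 0 counts in each library under their gene identifiers, and RefSeq annotates both as transcribed pseudogenes on this build.

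RNA was sequenced from the femur and tibia of 1 hind limb per mouse after the marrow had been spun out. All mice were C57BL6/N females aged 11 weeks. WT Control mice (n = 5) and mice labelled Sarm1-KO (KO Control, n = 6) had received saline. WT T1D (n = 6) and KO T1D (n = 6) mice had received streptozotocin, a toxin of insulin-producing beta cells, in doses of 100 mg/kg, and their diabetes had lasted 3 weeks. The knockout was global, so Sarm1, which encodes an NAD-consuming enzyme best known from axon degeneration, was absent by design from every cell type and not only from bone. The comparisons ask how T1D changed interferon-stimulated genes in WT bone, and whether the change differed in mice labelled Sarm1-KO.

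Type I interferons (alpha and beta) bind the IFNAR receptor and activate the kinases JAK1 and TYK2. The complex ISGF3, which contains STAT2 and IRF9, then binds interferon-stimulated response elements (ISRE) in the promoters of antiviral genes. Interferon gamma signals through another receptor and acts on gamma-activated sites (GAS) in promoters. It induces, among others, guanylate-binding proteins (GBPs) and immunity-related GTPases (IRGs), some of which attack vacuoles holding intracellular microbes. The lists overlap in biology, since type I interferon also induces many of these GTPases, and hematopoietic cells in bone express many of the genes at a low level without infection.

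RefSeq promoters (GRCm38.p6, from 250 bases before to 50 bases after the start) were available for 30 of the 38 members. The core of the ISRE, GAAA followed by any 2 bases and GAAA, was searched on both strands together with the GAS pattern TTCNNNGAA, which reads the same on both strands. An ISRE core was found in 7 of 7 GTPase promoters (100%) and in 11 of 23 type I promoters (47.8%), against 3.99% of the promoters of 27025 genes and 3.9% of those of 11351 tested genes. A GAS pattern was found in 4 of 7 GTPase promoters (57.1%) and in 6 of 23 type I promoters (26.1%), against 9.55% and 8.39% in the same backgrounds. A match is a match of letters and not a measured binding site, and matches can overlap one another.

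The 200 bases before the start of 6 members are shown for 4 members that passed the test for T1D in WT bone over all 23 libraries (Ifit3, Gbp2, Irgm2 and Isg20), for Igtp, the neighbour of Irgm2, and for Isg15, which did not pass the test. They were chosen with these results known. Capitals mark the matches. Ifit3 (chr19:34583329-34583528, plus strand) held 2 separate ISRE cores, Isg15 (chr4:156200819-156201018, minus strand) held 3 overlapping ones, and Gbp2 (chr3:142620463-142620662, plus strand) held 1. Irgm2 (chr11:58214777-58214976, plus strand) and its neighbour Igtp (chr11:58199356-58199555, plus strand) each held a GAS pattern 2 bases ahead of an ISRE core, and the ISRE core and the end of the GAS pattern lay in a run of 29 bases identical in both genes. Isg20 (chr7:78913224-78913423, plus strand) held a GAS pattern and no ISRE core.
Ifit3: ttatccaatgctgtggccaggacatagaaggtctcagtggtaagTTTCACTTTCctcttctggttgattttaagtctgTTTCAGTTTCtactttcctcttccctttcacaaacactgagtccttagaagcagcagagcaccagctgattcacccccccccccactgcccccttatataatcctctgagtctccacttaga
Isg15: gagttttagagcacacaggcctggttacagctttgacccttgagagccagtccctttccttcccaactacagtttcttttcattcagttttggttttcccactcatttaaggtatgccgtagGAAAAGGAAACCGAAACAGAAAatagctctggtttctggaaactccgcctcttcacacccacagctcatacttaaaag
Gbp2: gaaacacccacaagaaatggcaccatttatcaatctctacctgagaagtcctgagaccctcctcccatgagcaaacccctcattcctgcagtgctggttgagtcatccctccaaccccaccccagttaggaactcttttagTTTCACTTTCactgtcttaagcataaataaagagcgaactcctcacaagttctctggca
Irgm2: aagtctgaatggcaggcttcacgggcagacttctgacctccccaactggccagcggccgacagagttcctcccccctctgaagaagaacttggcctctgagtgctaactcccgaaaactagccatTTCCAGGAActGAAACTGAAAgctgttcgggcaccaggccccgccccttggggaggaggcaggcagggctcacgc
Igtp: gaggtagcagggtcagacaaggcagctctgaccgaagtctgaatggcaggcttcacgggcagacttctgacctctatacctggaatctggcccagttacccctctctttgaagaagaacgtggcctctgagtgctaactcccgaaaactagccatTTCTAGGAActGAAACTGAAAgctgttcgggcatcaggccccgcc
Isg20: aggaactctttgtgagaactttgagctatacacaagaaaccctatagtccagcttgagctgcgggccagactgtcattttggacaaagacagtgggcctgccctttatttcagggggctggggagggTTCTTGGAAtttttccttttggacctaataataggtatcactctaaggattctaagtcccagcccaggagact

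**Figure D1:**
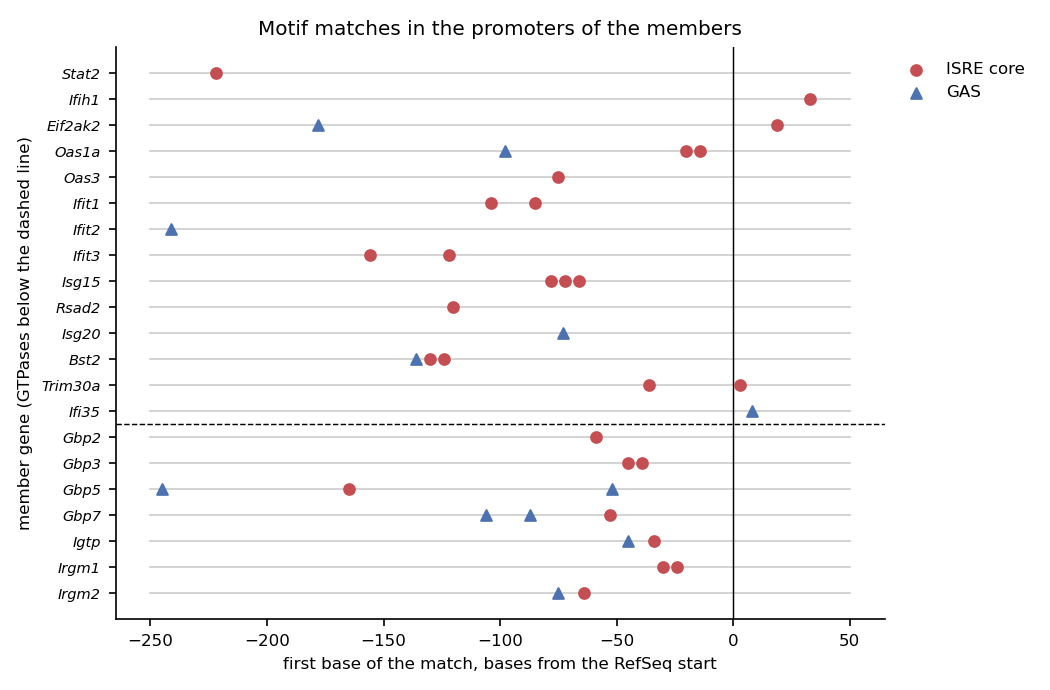
Position of each ISRE core (red circles) and GAS pattern (blue triangles) in the promoters of the 21 members with a match, as bases from the RefSeq start to the first base of the match. The 7 GTPases below the dashed line each had an ISRE core, and the ISRE cores of Igtp, Irgm1, Gbp2, Gbp3, Gbp7 and Irgm2 began between 24 and 64 bases before the start.

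Total counts ranged from 16938101 to 20135592 per mouse, and counts were scaled with TMM and are given as CPM, the count scaled to a common library size. Sarm1 RNA did not separate the genotypes, at 0.34 to 1.76 CPM in WT mice and 0.268 to 1.57 CPM in mice labelled Sarm1-KO. These values rest on only 5 to 32 counts per library, so in these data the loss of Sarm1 rests on the labels. By qPCR, the paper reports low Sarm1 expression in bone that was significantly lower in knockout than in WT mice. Xaf1 RNA did separate the mice by label. It was at 3.00 to 15.3 CPM in WT mice and 69.8 to 122 CPM in mice labelled Sarm1-KO, Control and T1D together. The WT T1D mice A3905 and A3906 stood apart from the rest. Their summed osteoblast and osteocyte markers were 6380 and 4965 CPM, against 51446 to 114772 CPM in the other groups, and their summed erythroid markers were 239059 and 234164 CPM, against 81552 to 166266 CPM. The remaining WT T1D mice had 60349 to 82548 CPM and 127317 to 180462 CPM, so some of their erythroid sums were raised as well. Several of the counts, medians and calls that rest on A3905 and A3906 are therefore also given without these mice. Other results that involve WT T1D mice include both. The mouse IDs of 1 WT Control and 3 WT T1D mice began with A17 and those of all others with A36 to A39.

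The level of each list in a mouse was summarised as the mean of log2 (CPM + 0.5) over its genes. For the type I genes WT Control mice had a mean of 5.40 ± 0.198 (SD, n = 5) and WT T1D mice one of 4.94 ± 0.406 (n = 6), while KO Control mice had 5.60 ± 0.0889 (n = 6) and KO T1D mice 5.36 ± 0.17 (n = 6). For the GTPases the means were 4.81 ± 0.136, 4.24 ± 0.329, 4.95 ± 0.13 and 4.77 ± 0.275 in the same order. Every WT T1D mouse lay below every WT Control mouse for the GTPases, with 4.57 as the highest T1D and 4.67 as the lowest Control value, whereas the type I values overlapped (4.33 to 5.34 against 5.23 to 5.70). The WT T1D means without A3905 and A3906 were 5.18 ± 0.191 (n = 4) and 4.43 ± 0.163 (n = 4).

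**Figure D2:**
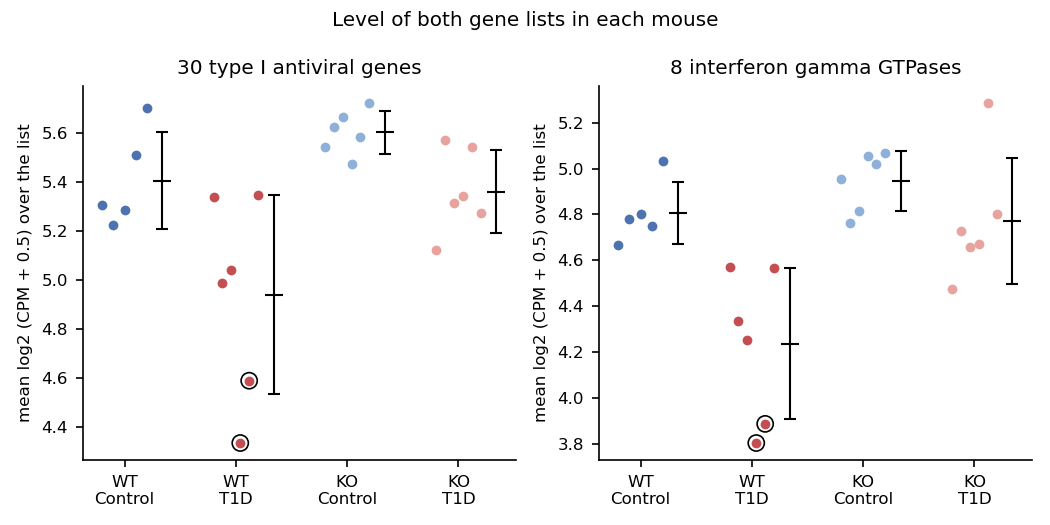
Mean log2 (CPM + 0.5) of the 30 type I antiviral genes (left) and the 8 GTPases (right) in each of 23 mice by group, with points for mice and the mean ± SD beside them. Ringed points are the WT T1D mice A3905 and A3906, which had the lowest level of both lists (4.33 and 4.59 for type I genes, 3.80 and 3.89 for GTPases).

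**Figure D3:**
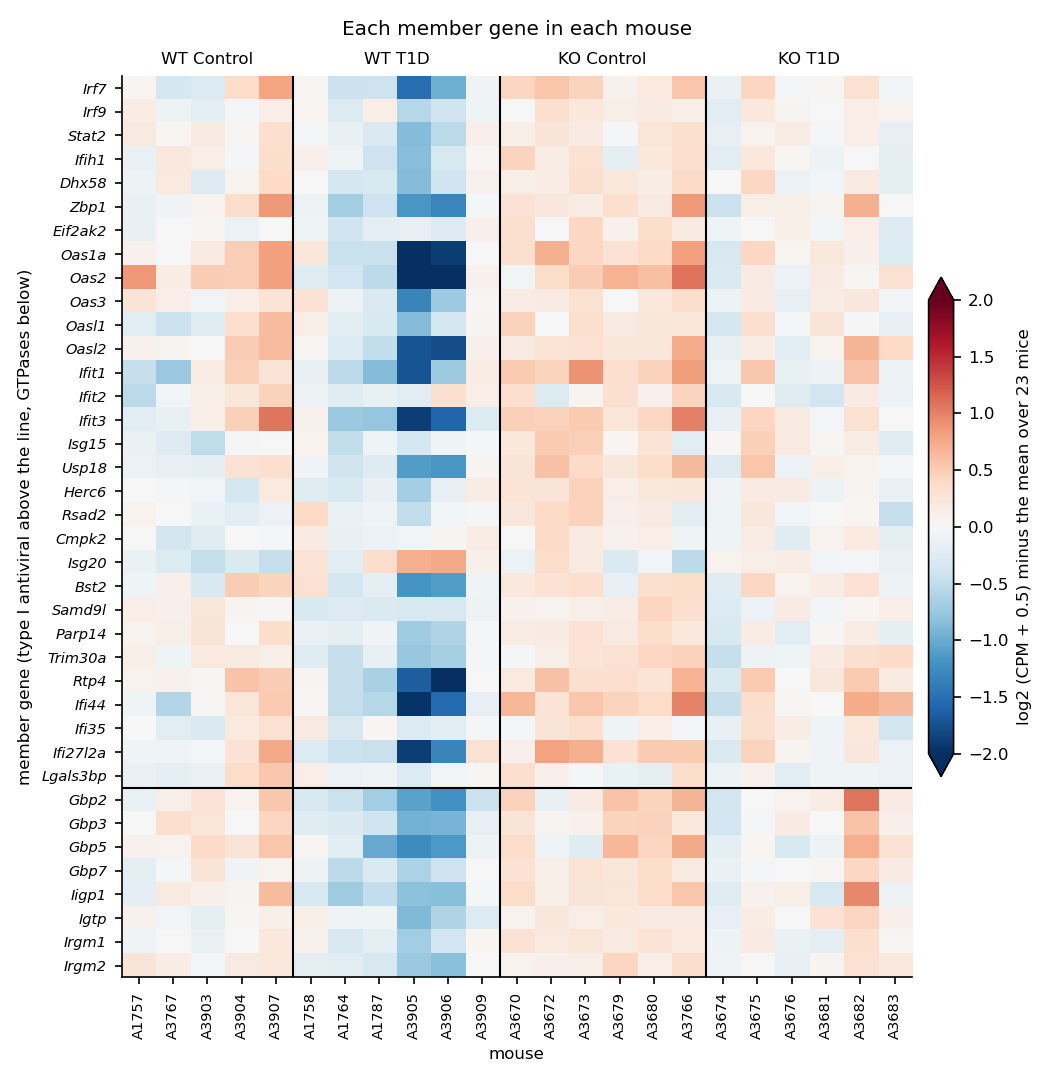
Level of the 38 member genes (rows) in the 23 mice (columns, by group) as log2 (CPM + 0.5) minus the gene's mean over all mice, with colours saturating at 2 in either direction. A3905 had the lowest level of all mice for 24 members and A3906 for 8, and Isg20 in the same mice was high.

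In the fit over all 23 libraries, 7 interferon-stimulated genes were called lower with T1D in WT bone and 1 higher. Without A3905 and A3906, 0 were called. The IFIT family gene Ifit3, the oligoadenylate synthetase Oas2, the ADP-ribosyltransferase Parp14 and the antiviral factor Samd9l fell among the type I genes, the GTPases Gbp2, Gbp3 and Irgm2 fell among the interferon gamma genes, and the antiviral exonuclease Isg20 rose. The 7 of 38 members that fell at an adjusted p under 0.05 (edgeR quasi-likelihood test, Benjamini-Hochberg over all genes) compare with 0.828% of all tested genes, and the 1 member that rose with 1.5%. At an unadjusted p under 0.05, 25 of 38 members were lower, against 11.2% of all genes. The median log2 fold change was -0.42 for the type I genes and -0.61 for the GTPases, against -0.01 for all genes, and 34 of 38 values were negative. In bulk bone, fewer cells of a type and less RNA per cell cannot be told apart.

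None of the 3 transcription factors and 4 sensors of the response passed the test. Irf7, which drives interferon alpha genes, had a log2 fold change of -0.66 ± 0.22 (SE), Stat2 of -0.42 ± 0.12 and Irf9 of -0.17 ± 0.10, with adjusted p values of 0.0877, 0.0591 and 0.346. Among the 4 nucleic acid sensors, the fold changes ran from -0.83 ± 0.24 for Zbp1, a sensor of Z-form nucleic acids (adjusted p = 0.0547), to -0.12 ± 0.09 for Eif2ak2, the kinase PKR that halts translation (adjusted p = 0.471). Ifih1 (MDA5) and Dhx58 (LGP2), sensors of viral double-stranded RNA, lay between them at -0.35 ± 0.14 and -0.37 ± 0.14.

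Enzymes of the OAS family make oligoadenylates that activate RNase L. Oas2 was at 48.1, 29.0, 37.5, 37.1 and 46.7 CPM in the 5 WT Control mice and had a lowest, median and highest value of 3.51, 19.0 and 27.8 CPM in WT T1D. All 6 T1D mice were therefore below all Control mice, and A3905 and A3906 (3.51 and 4.16 CPM) were far below the other 4. The log2 fold change was -1.32 ± 0.35 (adjusted p = 0.049), a fall by 59.8%. Oas1a was at 24.0, 22.8, 25.7, 32.1 and 40.4 CPM in WT Control and at 4.59, 16.5 and 26.6 CPM (lowest, median, highest) in WT T1D. Only A1758 of the T1D mice reached the Control range, and the difference of -0.91 ± 0.30 did not pass the test (adjusted p = 0.0846), nor did those of Oas3 (-0.43 ± 0.17), Oasl1 (-0.31 ± 0.18) and Oasl2 (-0.79 ± 0.27). Oas1a shares sequence with Oas1g and other copies, so its reads may have been divided between them.

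Some IFIT proteins bind viral RNA that lacks host cap marks. Ifit3 was at 15.7, 16.6, 20.2, 25.9 and 39.3 CPM in the WT Control mice and at 4.64, 10.7 and 19.6 CPM (lowest, median, highest) in WT T1D. Of the 6 T1D mice, 5 lay below all Control mice and A1758 lay among them, and the log2 fold change was -1.08 ± 0.28 (adjusted p = 0.046). Its near-identical copy Ifit3b had -1.09 ± 0.38 (adjusted p = 0.0981). Ifit1 (-0.55 ± 0.26) and Ifit2 (-0.11 ± 0.16) did not pass the test. In the ISG15 system, the ubiquitin-like protein gene Isg15 itself was at 42.8, 39.1, 32.6, 45.8 and 46.5 CPM in WT Control and 33.1, 44.5 and 49.3 CPM (lowest, median, highest) in WT T1D, with overlapping groups and a log2 fold change of 0.03 ± 0.14. Usp18, the protease that removes ISG15 and restrains IFNAR signalling, had -0.49 ± 0.20 (adjusted p = 0.15) and the ISG15 ligase Herc6 had -0.18 ± 0.11 (adjusted p = 0.363).

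Among the other effectors, Samd9l was at 91.5, 90.5, 97.8, 87.6 and 85.1 CPM in WT Control and at 66.9, 67.9 and 78.4 CPM (lowest, median, highest) in WT T1D. The groups did not overlap, A3905 and A3906 lay with the other T1D mice here, and the log2 fold change was -0.38 ± 0.08 (adjusted p = 0.0331). Parp14 was at 62.0, 63.8, 70.1, 59.0 and 75.3 CPM in WT Control and at 35.9, 52.5 and 57.2 CPM (lowest, median, highest) in WT T1D, again without overlap (-0.44 ± 0.11, adjusted p = 0.046). Rtp4 was at 30.9, 31.2, 29.9, 43.7 and 41.8 CPM in WT Control and at 6.30, 19.8 and 30.3 CPM in WT T1D. Its groups overlapped through A1758, and it did not pass the test (-0.89 ± 0.27, adjusted p = 0.0668). Bst2 (tetherin, which holds budding virions at the cell surface) and Trim30a had -0.52 ± 0.21 and -0.48 ± 0.14, while Rsad2 (viperin) and its neighbour Cmpk2, a nucleotide kinase, had 0.03 ± 0.13 and 0.14 ± 0.10.

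Isg20, an exonuclease that degrades single-stranded RNA, was the 1 member that rose. It had the highest mean TPM of the 38 members (425), and TPM corrects for transcript length. It was at 244, 220, 192, 219 and 193 CPM in WT Control and at 229, 332 and 452 CPM (lowest, median, highest) in WT T1D, where 5 of 6 mice exceeded all Control mice and A3905 and A3906 were the highest of all (436 and 452 CPM). The log2 fold change was 0.69 ± 0.15 (adjusted p = 0.0367). The other induced genes Ifi44, Ifi27l2a, Ifi35 and Lgals3bp had fold changes from -0.78 ± 0.32 (Ifi44, adjusted p = 0.153) to -0.11 ± 0.13 (Ifi35). Ifi44 had the lowest mean TPM of the type I genes (2.88) and was at 4.87, 3.29, 5.31, 6.26 and 7.71 CPM in WT Control and 0.962, 3.46 and 5.28 CPM (lowest, median, highest) in WT T1D.

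All 8 GTPases had negative fold changes in WT T1D, and 6 had an unadjusted p under 0.05. Gbp2 was at 21.6, 25.9, 29.0, 25.0 and 34.9 CPM in WT Control and at 9.95, 15.9 and 19.2 CPM (lowest, median, highest) in WT T1D. Gbp3 was at 15.1, 19.1, 18.1, 15.1 and 20.6 CPM in WT Control and at 7.64, 11.9 and 13.5 CPM in WT T1D. Neither gene's groups overlapped, and the log2 fold changes were -0.87 ± 0.21 (adjusted p = 0.0451) and -0.69 ± 0.16 (adjusted p = 0.0418). Gbp5, which had the lowest mean TPM of the GTPases (3.20), was also separated, with 6.68, 6.58, 8.36, 7.55 and 9.48 CPM in WT Control and at most 6.42 CPM in WT T1D, but missed the threshold (-0.87 ± 0.26, adjusted p = 0.0634). Gbp7 had -0.34 ± 0.11 (adjusted p = 0.0817). Reads of GBP paralogs may have been divided among them.

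Within the IRG family, Irgm2 was at 57.9, 53.8, 47.1, 55.0 and 56.0 CPM in WT Control and at 26.8, 40.0 and 48.1 CPM (lowest, median, highest) in WT T1D. A3909 alone reached the Control range, and Irgm2 fell by 0.52 ± 0.12 on the log2 scale (adjusted p = 0.044). Its neighbour Igtp, which shares the promoter stretch shown above and had the highest mean TPM of the GTPases (33.8), was at 49.8, 45.0, 41.5, 47.6 and 50.4 CPM in WT Control and at 25.3, 41.3 and 51.0 CPM in WT T1D. The groups overlapped, and the change of -0.26 ± 0.13 did not pass the test (adjusted p = 0.231). Irgm1 had -0.23 ± 0.11 (adjusted p = 0.241) and the effector Iigp1 had -0.71 ± 0.20 (adjusted p = 0.053). Over all members, every WT T1D mouse lay below every WT Control mouse for Oas2, Samd9l, Parp14, Gbp2, Gbp3 and Gbp5 (6 of 38), against 0.877% of all genes.

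**Figure D4:**
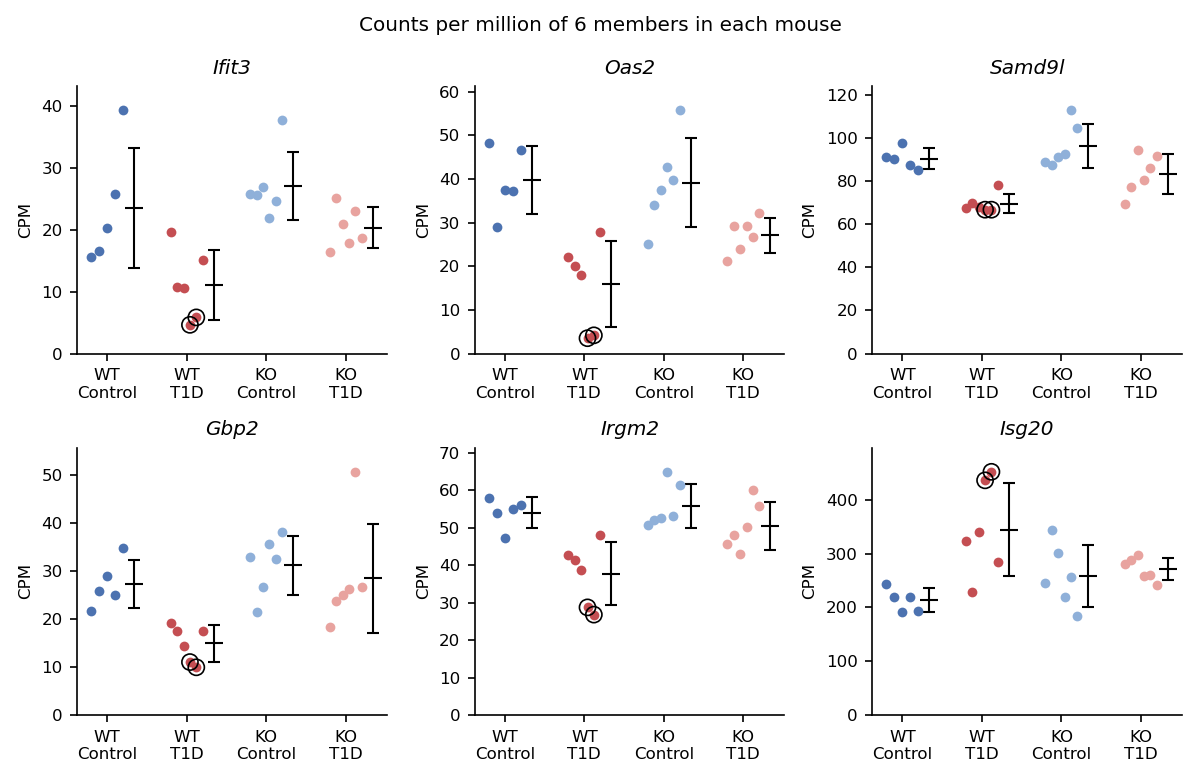
CPM of Ifit3, Oas2, Samd9l, Gbp2, Irgm2 and Isg20 in each mouse by group, on linear axes from 0, with mean ± SD beside the points and A3905 and A3906 ringed. In WT T1D, Samd9l lay between 66.9 and 78.4 CPM below all WT Control mice, and Isg20 reached 452 CPM in A3906.

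The 8 calls depended on which mice were included. Without A3905 and A3906, 0 of the 14364 tested genes and so 0 members passed the edgeR test, 17 members were lower at an unadjusted p under 0.05 and 1 was higher, and the medians were -0.23 for type I genes and -0.42 for GTPases. Leaving out any 1 of A3767, A3903, A3904, A3907, A1787, A3905 or A3906 gave 0 member calls, with 0 to 30 genes called in all, whereas leaving out A3909 gave 20 members among 1264 genes and A1758 gave 13 among 539. Without A3905 and A3906, the fold changes of the 8 called members were -0.86 ± 0.18 for Oas2 (adjusted p = 0.117), -0.75 ± 0.23 for Ifit3, -0.28 ± 0.09 for Parp14, -0.35 ± 0.09 for Samd9l, -0.67 ± 0.22 for Gbp2, -0.50 ± 0.15 for Gbp3, -0.34 ± 0.10 for Irgm2 and 0.46 ± 0.14 for Isg20, the others with adjusted p values from 0.252 to 0.307. A score of erythroid markers added as a covariate also gave 0 calls over all genes, with 1 member lower at an unadjusted p under 0.05. DESeq2 called 15 members (14 lower) among 1002 genes in all, and the A36 to A39 mice alone gave 19 (18 lower) among 2205. The only WT T1D mice in that subset were A3905, A3906 and A3909, so it leans on A3905 and A3906 more than the full set. On log2 (TPM + 1), 33 members were called among 5154 genes, but there the median of all genes was itself -0.24, against which the type I and GTPase medians were -0.69 and -0.82.

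Cell type markers moved in the same comparison, in which 1.5% of all genes rose and 0.828% fell at an adjusted p under 0.05. Without A3905 and A3906, 0 of the 14364 tested genes passed, so 0 markers did. Of the erythroid markers, 8 of 13 rose in WT T1D (Ahsp was not matched), with summed levels of 98520 to 144238 CPM in WT Control, 127317 to 239059 CPM in WT T1D, 81552 to 166266 CPM in KO Control and 109860 to 153866 CPM in KO T1D. Of the plasmacytoid dendritic cell markers (cells that secrete type I interferon), 2 of 8 fell, with sums of 316 to 606, 171 to 527, 376 to 753 and 315 to 438 CPM in these groups. The median sum was higher in WT T1D (464 CPM) than in WT Control (378 CPM), whereas the median log2 fold change of the 8 markers was -0.58. A sum is set mostly by the most expressed markers, so these measures can differ. The WT T1D mice other than A3905 and A3906 had sums of 454 to 527 CPM. Of the osteoblast and osteocyte markers, 1 of 10 fell, with sums of 58898 to 114772, 4965 to 82548, 51446 to 103682 and 68897 to 102899 CPM. Their median log2 fold change in WT T1D was -0.77, and that of the erythroid markers was 0.64, both with A3905 and A3906 included. T and NK cell markers (1 of 10 fell, median log2 fold change -0.30) summed to 118 to 160 CPM in WT Control and 108 to 135 CPM in WT T1D. In contrast, 0 of 10 passed the test among the neutrophil, monocyte and macrophage, B cell, skeletal muscle and endothelial markers (median log2 fold changes 0.24, -0.13, -0.02, 0.15 and -0.21). A3905 and A3906 had the lowest plasmacytoid dendritic cell sums (171 and 220 CPM) and the lowest B cell sums (206 and 252 CPM) and the highest erythroid sums. They also had the highest neutrophil sums (39942 and 36528 CPM, at most 32511 elsewhere) and the lowest endothelial sums (358 and 331 CPM, at least 376 elsewhere). No matched marker gene was at 0 in all libraries. An erythroid score was used as a covariate above, but it moves with A3905 and A3906. For the other cell types, the part in the interferon values was not tested.

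In mice labelled Sarm1-KO, T1D changed 0 of 38 members at an adjusted p under 0.05, as it did 0% of all genes, and DESeq2 and limma on log2 (TPM + 1) also called 0. At an unadjusted p under 0.05, 5 members were lower (Ifit2, Herc6, Eif2ak2, Parp14 and Samd9l) and 0 higher, against 1.66% of all genes that were lower. That count was 15 without A3905 and A3906, 11 without A3905 or A3675, 10 without A3682, and 3 without A3681 or A3674. The fold changes were negative for 37 of 38 members, with medians of -0.23 for the type I genes and -0.16 for the GTPases, against 0.00 for all genes. The largest were those of Oas2 (-0.53 ± 0.33), Oas1a (-0.46 ± 0.28), Ifi27l2a (-0.46 ± 0.25) and Ifit1 (-0.46 ± 0.24). Oas2 was at 25.1, 38.6 and 55.7 CPM (lowest, median, highest) in KO Control and 21.3, 28.0 and 32.2 CPM in KO T1D. Ifit1 was at 23.6, 26.3 and 34.9 CPM in KO Control and 16.7, 17.4 and 27.8 CPM in KO T1D, and both genes' groups overlapped. Ifi27l2a, at 26.6, 35.7 and 43.7 CPM in KO Control and 20.1, 24.6 and 33.7 CPM in KO T1D, overlapped as well. Parp14 was the 1 member for which every KO T1D mouse (47.4 to 65.1 CPM) lay below every KO Control mouse (65.2 to 75.0 CPM), against 0.167% of all genes.

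**Figure D5:**
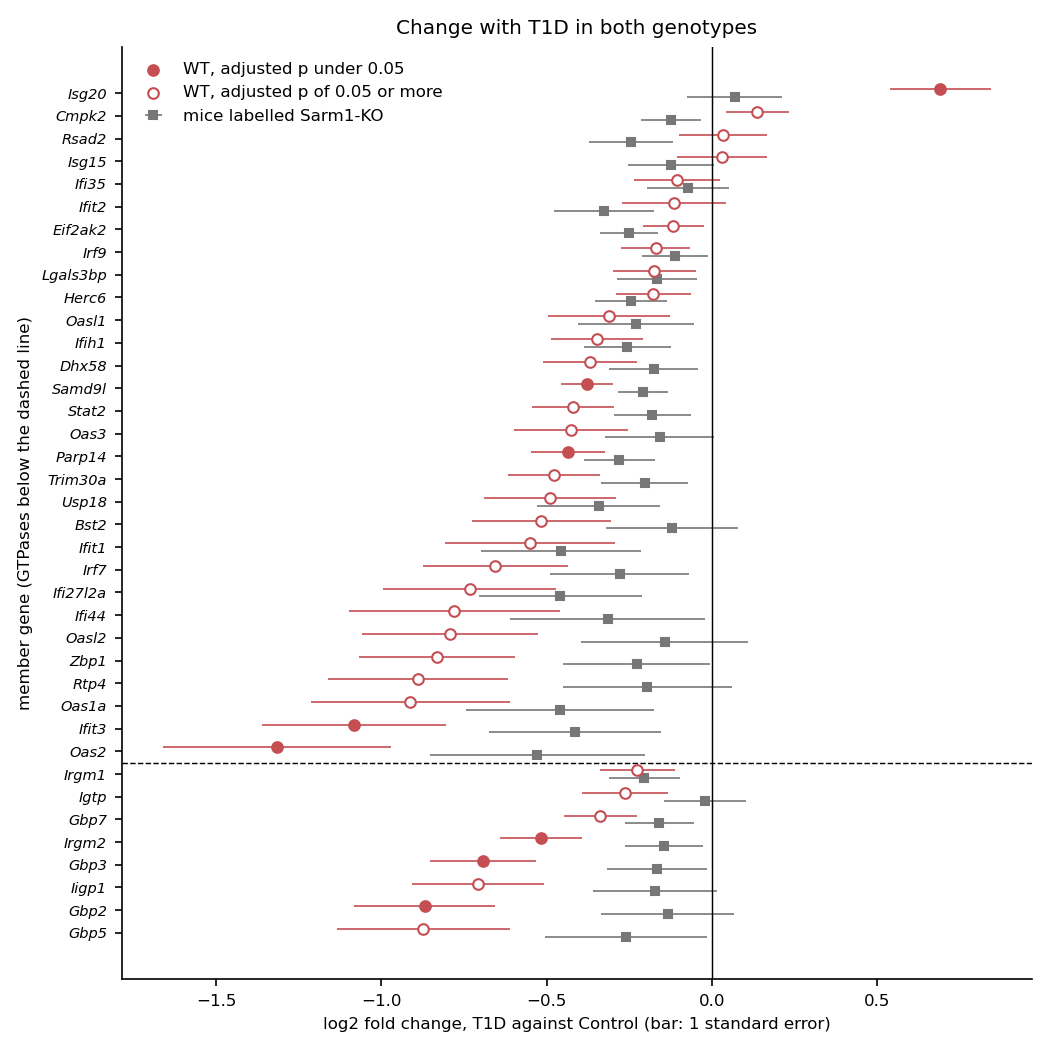
Log2 fold change of each member, T1D against Control, in WT mice (circles, filled where the adjusted p was under 0.05) and in mice labelled Sarm1-KO (squares), with bars of 1 SE and members ordered by the WT value within each list. Points left of 0 were lower in T1D, as 34 of 38 members were in WT mice and 37 of 38 in mice labelled Sarm1-KO.

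The difference between the T1D effects of both genotypes was tested as the interaction, where a positive value is a smaller fall in mice labelled Sarm1-KO. No member passed (lowest adjusted p = 0.479), as 0% of all genes did, and DESeq2 and limma called 0 as well. Of the members, 31 of 38 values were positive (7325 of 14364 over all genes), with a median of 0.16 for the type I genes and 0.45 for the GTPases. At an unadjusted p under 0.05, 3 of 38 members were positive, against 4.81% of all genes. These were the GTPases Gbp2, Gbp3 and Irgm2, with 0 of 30 type I genes. The largest values were those of Oas2 (0.79 ± 0.47, adjusted p = 0.552), Gbp2 (0.74 ± 0.29, adjusted p = 0.479), Rtp4 (0.69 ± 0.37, adjusted p = 0.516) and Ifit3 (0.67 ± 0.38, adjusted p = 0.534). Isg20 had the reverse sign at -0.62 ± 0.21 (adjusted p = 0.479). The count of 3 became 0 without A3905 and A3906 or without A3682, 1 without A3907, A3905 or A3906, 5 without A3674, and 8 without A1758 or A3909. The type I median ranged from 0.07 to 0.27 when 1 mouse was left out. No difference in the T1D effect between genotypes was shown for any member, and a missed threshold does not show that the effects were equal.

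The genotypes were then compared within each condition, and whether those differences differ is what the interaction tests. In T1D mice, 33 of 38 members were higher in mice labelled Sarm1-KO, with medians of 0.29 for the type I genes and 0.50 for the GTPases, and 26 were higher at an unadjusted p under 0.05, against 8.44% of all genes. None passed the adjusted threshold in edgeR, which 0.0905% of all genes did, whereas DESeq2 called 8 among 239 genes in all (Gbp2, Gbp3, Gbp7, Ifi44, Ifit3, Iigp1, Irgm2 and Rtp4). Gbp2 came nearest in edgeR at 0.93 ± 0.21 (adjusted p = 0.0644), with 18.4, 25.7 and 50.7 CPM (lowest, median, highest) in KO T1D against 9.95, 15.9 and 19.2 CPM in WT T1D. The groups overlapped through A3674, whose 18.4 CPM lay under the highest WT T1D mouse, and A3682 was the highest of all 23 mice. Ifi44 had 1.00 ± 0.31 (adjusted p = 0.146), Ifit3 0.87 ± 0.27 (adjusted p = 0.145) and Rtp4 0.84 ± 0.26 (adjusted p = 0.15). For 0 members did every KO T1D mouse exceed every WT T1D mouse, against 0.453% of all genes. Without A3905 and A3906, 11 members were higher at an unadjusted p under 0.05 and the medians were 0.18 and 0.34, and without A3905 alone the count was 17. Without A3909, edgeR called 3 members (Gbp2, Gbp7 and Irgm2), and without A1758 it called 1 (Gbp2).

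In Control mice, 0 members differed between genotypes at an adjusted p under 0.05 in edgeR, DESeq2 or limma, against 0.0278% of all genes. The medians were 0.16 for both lists, 36 of 38 values were positive, and 6 type I genes were higher in mice labelled Sarm1-KO at an unadjusted p under 0.05 (2.3% of all genes were). That count was 3 without A3767 and 11 without A3905 and A3906. Ifit1 had the largest difference, 0.60 ± 0.26, followed by Ifi44 (0.53 ± 0.31), Isg15 (0.42 ± 0.14) and Usp18 (0.38 ± 0.20), each with an adjusted p of 0.999. Isg15 was at 40.2, 55.5 and 67.5 CPM (lowest, median, highest) in KO Control against 32.6 to 46.5 CPM in WT Control, and the groups overlapped. Usp18 was at 14.2, 15.8 and 19.2 CPM in KO Control against 10.6 to 15.5 CPM in WT Control. Xaf1 differed far more than any member, at 9.49 to 15.3 CPM in WT Control and 90.5 to 122 CPM in KO Control (3.22 ± 0.24, adjusted p = 9.52e-09), and its gene (72301461 to 72313733) lies 6.2 Mb from Sarm1 (78470273 to 78497816) on chromosome 11 of GRCm38.p6. The 6 members on that chromosome lie farther from Sarm1, from 20.2 Mb (Irgm2) to 39.9 Mb (Lgals3bp), and had differences of -0.03 (Lgals3bp), 0.05 (Irgm2), 0.09 (Ifi35), 0.15 (Dhx58), 0.17 (Igtp) and 0.22 (Irgm1) in Control mice.

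Averaged over both genotypes, T1D lowered Samd9l (-0.29 ± 0.05, adjusted p = 0.04), the 1 of 38 members that passed, against 0.111% of all genes. Samd9l lay at 66.9 to 78.4 CPM in WT T1D and 69.4 to 94.4 CPM in KO T1D, and at 85.1 to 97.8 and 87.7 to 113 CPM in the Control groups. At an unadjusted p under 0.05, 29 of 38 members were lower (7.75% of all genes were) and Isg20 was higher. Oas2 (-0.92 ± 0.24), Ifit3 (-0.75 ± 0.19), Oas1a (-0.69 ± 0.21) and Ifi27l2a (-0.60 ± 0.18) had larger fold changes with adjusted p values from 0.11 to 0.12. Without A3905 and A3906, Oas2 was called in place of Samd9l. The Samd9l call was lost without A3905, A3906, A3767, A3903, A3904, A3907, A3680, A3670, A3766, A3681, A3683, A3674 or A3675, each of which gave 0 members, and without A3909, A3682 or A1758 the members called were 10, 3 and 2.

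A log2 fold change under -0.35 in each genotype, an averaged unadjusted p under 0.01 and an interaction p of at least 0.05 were met by 5 members, Oas1a, Oas2, Ifit1, Ifit3 and Ifi27l2a, against 0.341% of all genes. All 5 are type I genes. Without KO Control mouse A3766 the count was 3 and without KO T1D mouse A3682 it was 9, while without A3905 and A3906 it was 4.

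The rest of the pathway was read from lists of receptors, inhibitors, sensors, further GTPases, antigen presentation genes, chemokines and paralogs. The 21 interferon ligand genes were too low to test, with 122 counts in all over 23 libraries and reads for Ifnb1, Ifnab, Ifnz and Ifng only. In WT mice, T1D changed 0 of 6 interferon receptors, 0 of 6 inhibitors, 0 of 14 nucleic acid sensing genes and 0 of 10 paralogs of members at an adjusted p under 0.05. Of 10 other interferon GTPases, Gbp4 (-0.81 ± 0.21, adjusted p = 0.046) and Tgtp1 (-0.94 ± 0.23, adjusted p = 0.0451), a near-identical copy of Tgtp2, fell. Of 13 genes of the MHC and the proteasome, the transactivator Nlrc5 fell (-0.64 ± 0.14, adjusted p = 0.0367). Of 3 interferon-induced chemokines, Cxcl10, which attracts T cells, fell from 8.55 ± 4.32 CPM (SD, n = 5) to 2.83 ± 1.45 CPM (n = 6) at -1.59 ± 0.37 (adjusted p = 0.0418). Of all genes, 0.828% fell in this comparison. Without A3905 and A3906, 0 of the 14364 tested genes passed in WT mice, so these calls were lost as well. In mice labelled Sarm1-KO, 0 genes of these lists passed. There the same genes had -0.43 ± 0.20 (Gbp4), 0.13 ± 0.22 (Tgtp1), -0.05 ± 0.14 (Nlrc5) and -0.59 ± 0.34 (Cxcl10). The interaction passed for 0 of the 14364 tested genes, so no difference between genotypes was shown for these genes.

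Promoter letters and fold changes can be set side by side for the 30 members with a promoter. In WT T1D, the median log2 fold change was -0.43 for the 11 type I genes with an ISRE core (from -1.08 for Ifit3 to 0.03), -0.18 for the 12 without one (from -0.79 to 0.69 for Isg20) and -0.52 for the 7 GTPases, which all had one. Isg15, with 3 overlapping cores, and Rsad2, with 1, had fold changes of 0.03, whereas Samd9l had no core in this window and fell. No core in this window says only that these letters were not found between 250 bases before and 50 bases after the start.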

How the data were processed

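RNA from bone of 23 mice, each mouse 1 library, was sequenced after poly(A) selection with a stranded kit on DNBSEQ. The authors deposited expected counts per gene (67228 genes) and TPM (17644 genes). Per the labels and the study's methods, SOAPnuke cleaned the reads, HISAT and Bowtie2 mapped them against GRCm38.p6, and RSEM quantified them. RSEM shares reads of near-identical genes by estimate. Whether counting used strand is not given in the sources used here. No columns of comparisons were used.

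Expected counts were rounded. The 14364 genes that reached 10 counts in 5 or more libraries were scaled with TMM and tested with the edgeR 4.0.16 quasi-likelihood test (R 4.3.3) in 1 model of genotype, T1D and their interaction over all 23 libraries, with Benjamini-Hochberg adjustment over all genes and a threshold of 0.05. Log2 fold changes are given ± SE, and CPM as mean ± SD or per mouse. Groups came from the labels, and nothing showed a library deposited more than once (chi-square per gene of 10.9 to 187 over 55 pairs within groups). Totals of 16938101 to 20135592 counts set the precision, and spread between mice was estimated from the replicates.

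The members, lists and tests were chosen with earlier results of these data known. Members were named if they were called in any comparison, were among the 4 with the largest log2 fold change in a comparison at a mean of at least 1 CPM, or had the highest or lowest mean TPM of their list. Others named in the text (such as Zbp1, Irf7 and Gbp7), and the promoters shown, were chosen after their values were seen. Alternatives were DESeq2 1.42.0, RLE scaling, no filter on low counts, limma 3.58.1 on log2 (TPM + 1) and log2 (TPM + 0.1), the A36 to A39 mice only, a score of erythroid markers as a covariate, leaving out A3905 and A3906, and leaving out each mouse. A list of signalling genes is not reported here. Scripts were tested on simulated data. Promoters came from RefSeq, and Python 3.11.15, pandas 2.3.3, numpy 2.4.6 and matplotlib 3.10.9 were used.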

Additional observations from a re-analysis of the deposited data

Results flagged for a closer look

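Among 76 sets, each the values of 1 of 17 named members or of 1 of the 2 list levels in 1 group, 3 held a mouse far from the others of its group by Dixon's criterion, which chance alone meets in about 1 in 20 sets. Gbp2 was at 50.7 CPM in KO T1D mouse A3682, where the other 5 mice had 18.4 to 26.7 CPM. Ifit3 was at 37.7 CPM in KO Control mouse A3766, the highest of its group. Samd9l was at 78.4 CPM in WT T1D mouse A3909, the highest of its group and still below all WT Control mice.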

How the results depend on the processing

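The number of members called for T1D in WT mice was 8 with edgeR, 15 with DESeq2, 3 without a filter on low counts, 33 with limma on log2 (TPM + 1) and 33 on log2 (TPM + 0.1), 19 in the A36 to A39 mice, 0 with the erythroid score and 0 without A3905 and A3906. Of the WT T1D mice, the A36 to A39 set held only A3905, A3906 and A3909. Leaving out 1 mouse gave 0 to 20 calls, with 0 without A3767, A3903, A3904, A3907, A1787, A3905 or A3906, 2 without A3679, A3670, A3673, A3681 or A3675, 3 without A3680, 4 without A3676, 5 without A3672 or A3683, and 13 and 20 without A1758 and A3909. The type I median in WT was -0.69 and -0.75 on the TPM scales and -0.15 with the erythroid score, and the GTPase median was -0.92 on log2 (TPM + 0.1) and -0.18 with the erythroid score. Ifi44 changed sign in WT with the erythroid score (0.043). For KO against WT in T1D, calls were 8 with DESeq2, 20 on both TPM scales, 14 in the A36 to A39 mice and 0 to 3 when leaving out 1 mouse. Averaged over genotypes they were 12 with DESeq2, 28 and 26 on the TPM scales, 9 in the A36 to A39 mice, 0 with the erythroid score and 0 to 10 when leaving out 1 mouse, and the GTPase median was -0.14 with the erythroid score. The interaction median was 0.42 for type I genes on log2 (TPM + 0.1) and 0.080 for GTPases with the erythroid score. The TPM scales moved the median of all genes by -0.24 and -0.29 in WT T1D. The erythroid score moves with A3905 and A3906, so the 2 cannot be told apart, and other causes were not tested. T1D in mice labelled Sarm1-KO and the interaction had 0 members called under every alternative run. No paired analysis was possible because the labels give mouse IDs and no number shared between groups.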
